A study of Mus musculus with 24 samples.

Results

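The ligands and receptors of 2 growth factor families, the fibroblast growth factors (FGF) and the vascular endothelial growth factors (VEGF), were followed in the adult mouse dentate gyrus. The members were taken by name: Fgf1, Fgf2, Fgfr1, Fgfr2, Fgfr3, Vegfa, Vegfb, Kdr and Flt1, which are 9 of the 23306 genes in the expression table. All 9 had a mean of at least 1 TPM (a level normalised to the library total and corrected for transcript length) in every fit and were tested. Ribosome-bound RNA was collected by RiboTag, in which cells that have undergone Cre recombination carry a haemagglutinin-tagged Rpl22 and their ribosomes can be pulled down with an antibody. All mice, sedentary controls included, were female C57BL6 with the tamoxifen-inducible Nes-CreERT2 transgene and 1 tagged Rpl22 allele (RPL22HA/WT), and all received tamoxifen at 160 mg per kg daily for 5 days at 9 to 11 weeks of age. Running mice lived singly with a turning wheel, and sedentary mice had the same cage with the wheel blocked. The treatment time was 11, 18 or 27 days. Precipitated RNA (IP), labelled as immature neurons, and dentate gyrus RNA (input) were each sequenced in 2 libraries per activity and day, which gives 12 groups and 24 libraries. Because the driver is a Nestin promoter, which is active in stem cells, the tag can reach all descendants of the recombined cells and not neurons alone.

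FGF ligands bind receptor tyrosine kinases together with heparan sulfate, and the receptors signal through the adaptor Frs2 to the ERK kinases. Fgf1 and Fgf2 leave cells without a classical secretion signal, and Fgf2 is a widely used mitogen of cultured neural stem cells. Vegfa binds both Flt1 and Kdr, whereas Vegfb binds Flt1. Both VEGF receptors are best known from endothelial cells, and VEGF and FGF signals are known regulators of adult hippocampal neurogenesis.

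Promoter sequences are shown for the VEGF members, because the 2 ligands stood on opposite sides of the IP and input comparison and the 2 receptors followed each other across the precipitates. Of the 9 members, 7 had an entry in the RefSeq promoter table (GRCm38.p6). Each sequence runs 5′ to 3′ on the gene's strand from 250 to 11 bases before the annotated start, and none of the 4 overlaps an annotated exon of its gene. The Kdr and Flt1 windows lie inside the annotated span of the gene, upstream of the start that the table uses. Capitals mark 4 motifs searched on both strands: the GC box GGGCGG, the ETS core CCGGAA, the hypoxia response core ACGTG and the TATA box TATAAA.
Vegfa, chr17:46032388-46032627, minus strand: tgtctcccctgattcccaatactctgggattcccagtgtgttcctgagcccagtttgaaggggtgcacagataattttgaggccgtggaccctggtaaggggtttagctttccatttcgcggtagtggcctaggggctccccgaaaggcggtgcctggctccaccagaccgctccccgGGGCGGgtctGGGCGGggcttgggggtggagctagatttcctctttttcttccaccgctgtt
Vegfb, chr19:6987662-6987901, minus strand: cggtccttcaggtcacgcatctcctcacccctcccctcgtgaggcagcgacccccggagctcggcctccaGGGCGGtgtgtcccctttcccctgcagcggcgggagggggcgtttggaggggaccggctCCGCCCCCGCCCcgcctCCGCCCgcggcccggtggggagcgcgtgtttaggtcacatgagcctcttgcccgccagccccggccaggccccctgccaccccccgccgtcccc
Kdr, chr5:75978466-75978705, minus strand: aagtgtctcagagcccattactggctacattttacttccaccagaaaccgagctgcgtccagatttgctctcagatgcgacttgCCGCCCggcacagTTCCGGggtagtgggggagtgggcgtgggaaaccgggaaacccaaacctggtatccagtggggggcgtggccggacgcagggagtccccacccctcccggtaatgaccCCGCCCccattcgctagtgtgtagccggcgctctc
Flt1, chr5:147726022-147726261, minus strand: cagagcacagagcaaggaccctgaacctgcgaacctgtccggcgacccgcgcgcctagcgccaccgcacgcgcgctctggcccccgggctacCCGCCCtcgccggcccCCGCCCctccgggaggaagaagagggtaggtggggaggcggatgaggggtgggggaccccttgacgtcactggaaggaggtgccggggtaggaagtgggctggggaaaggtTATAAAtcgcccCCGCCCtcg
The Vegfa window held 2 GC boxes, the Vegfb window 4, the Kdr window 2 and the Flt1 window 3. Kdr also held 1 ETS core and Flt1 1 TATA box, and no match shared a base with another. Among all 32851 promoters of the table, cut to the same 240 bases, 31.3% held a GC box, 11.2% an ETS core, 15.9% a hypoxia response core and 12.1% a TATA box. The hypoxia response core was in none of the 4 windows shown. Vegfa has another entry in the table, with a start inside the gene, and its window (chr17:46025174-46025413, not printed because it overlaps annotated Vegfa exons) held 1 hypoxia response core and 1 GC box. G and C made up 76.3% of the Vegfb window, 70.8% of Flt1, 62.1% of Kdr and 59.2% of Vegfa.

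The marker lists describe what each fraction held. The 12 neuroblast and immature neuron markers and the 12 neural stem cell markers were all called higher in IP, with summed levels of 3603 ± 1096 against 998 ± 193 TPM and 1139 ± 216 against 437 ± 49.5 TPM (SD, n = 12 libraries each). The astrocyte list was mixed, with 6 of 12 markers called higher and 4 lower in IP and summed levels of 4144 ± 816 against 2975 ± 326 TPM, while all 7 interneuron and all 9 microglia markers were lower in IP. Over all genes tested, 41.4% were called higher in IP and 28.5% lower. The RNase P transcript Rpph1 took 17.4% of the TPM in the running IP library a of day 11 and 2.37% to 9.16% in the other libraries. The 1122 olfactory receptor genes, which serve as a background in this tissue, averaged 12.3 ± 3.43 TPM per gene in the day 18 input against 1.99 ± 1.61 on day 11 and 4.24 ± 1.27 on day 27 (SD, n = 4), and 2.42 to 3.93 TPM in IP.

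The first comparison asks which members were more abundant in the precipitate than in the whole dentate gyrus. No precipitate from untagged mice is among the 24 libraries, so RNA on tagged ribosomes and RNA carried over cannot be told apart. Of the 9 members, 4 were higher in IP (Fgfr1, Fgf2, Vegfa and Fgfr3), 3 were lower (Fgf1, Vegfb and Kdr), and Fgfr2 and Flt1 did not pass the test (limma, Benjamini-Hochberg adjusted p below 0.05 over 19507 genes). This must be read against the background: 41.4% of all genes tested were called higher in IP and 28.5% lower, with a median difference of 0.12 on the log2(TPM + 1) scale that is used for every difference given here. When libraries were scaled by their median ratio to the other libraries, that median moved to -0.12 and the split of all calls turned from 8077 higher and 5554 lower to 5430 higher and 8026 lower. Under that scaling Fgf1, Vegfb, Kdr, Fgfr2 and Flt1 were called lower, Fgfr1, Fgf2 and Vegfa stayed higher, and Fgfr3 missed the threshold. In bulk libraries, fewer cells of a type and less RNA per cell cannot be told apart.

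**Figure D1:**
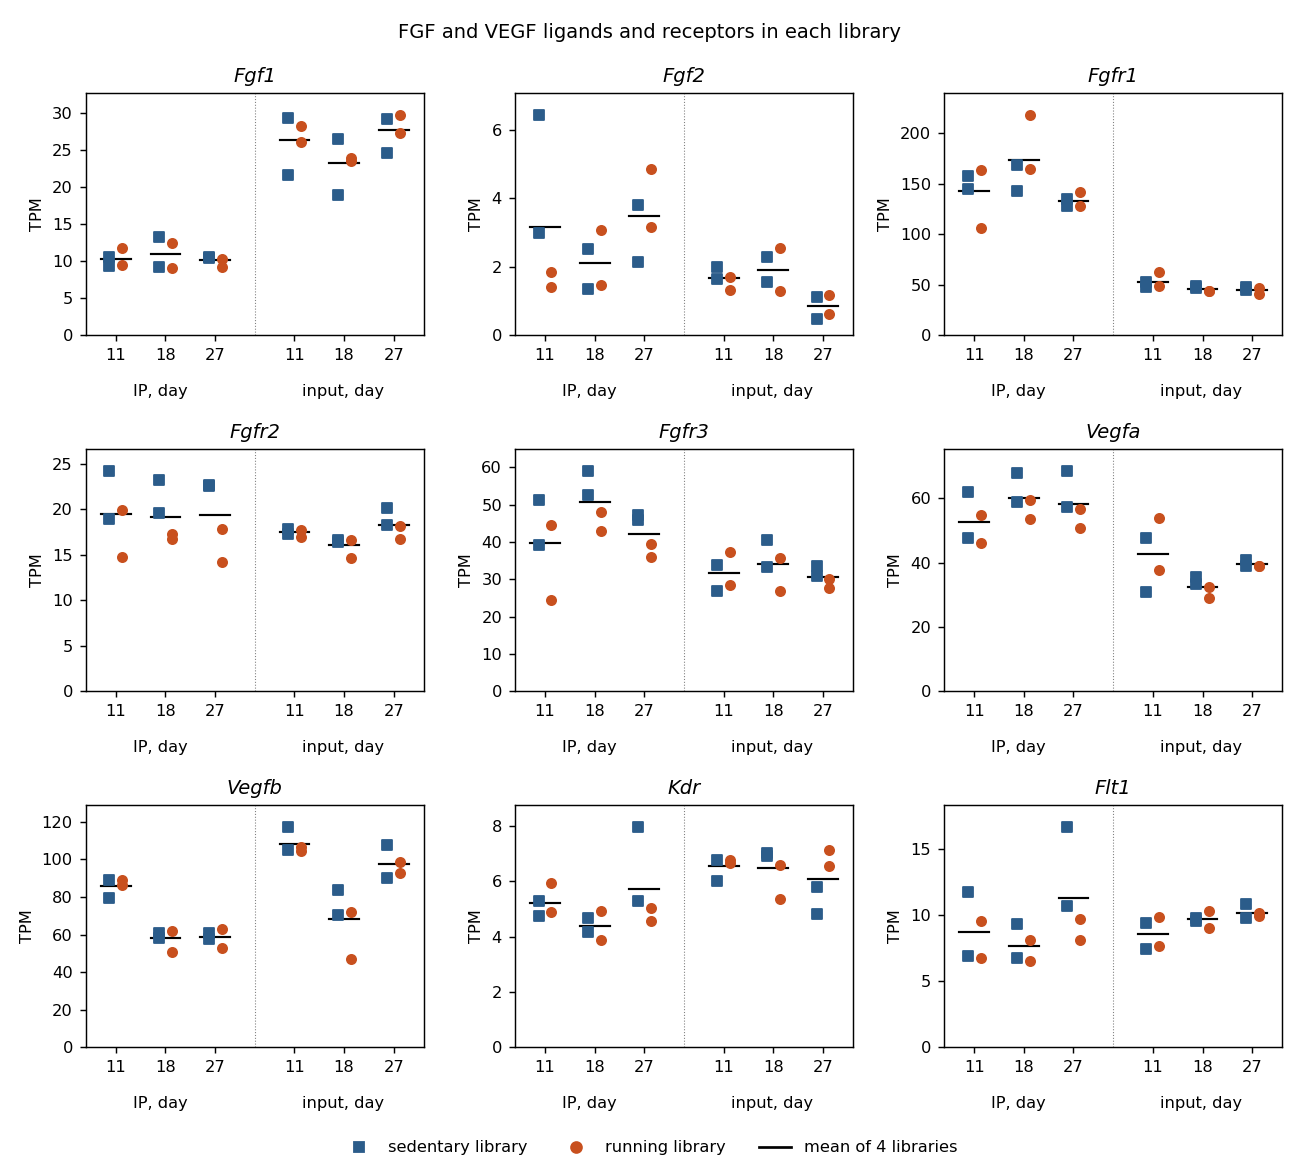
Level of each of the 9 members (TPM, linear axis from 0) in the 24 libraries, by fraction and day. Squares are sedentary libraries, circles running libraries, and the line is the mean of the 4 libraries of a fraction and day; Fgfr1 lies between 105.66 and 218.20 TPM in IP and between 40.94 and 62.08 in input, and Fgf1 shows the opposite separation.

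By level in IP, the order of the means was Fgfr1, Vegfb, Vegfa, Fgfr3, Fgfr2, Fgf1, Flt1, Kdr and Fgf2. In input it was Vegfb, Fgfr1, Vegfa, Fgfr3, Fgf1, Fgfr2, Flt1, Kdr and Fgf2. In IP, the ranges of Fgfr1 and Vegfb (lowest 105.66 against highest 88.94 TPM), of Fgfr3 and Fgfr2 (24.34 against 24.22 TPM) and of Fgfr2 and Fgf1 (14.25 against 13.23 TPM) did not overlap, while the other neighbours in that order did. In input, Fgfr2 and Flt1, Flt1 and Kdr, and Kdr and Fgf2 were the neighbours without overlap, and Vegfb, Fgfr1, Vegfa, Fgfr3 and Fgf1 each overlapped the next in order.

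Among the ligands, Fgf1 was the member most depleted from the precipitate. Its level was 9.10 TPM in the lowest, 10.4 in the median and 13.23 in the highest IP library, against 18.97, 26.3 and 29.79 TPM in input. The fractions did not overlap. The difference was -1.22 ± 0.09 (SE; adjusted p = 2.73e-10, limma), and the within-day differences were -1.27, -1.02 and -1.37 on days 11, 18 and 27. The Fgf1 gene (chromosome 18, 38838672 to 38929470, minus strand, GRCm38.p6, RefSeq) lies inside Arhgap26 of GENCODE M21. Arhgap26 is transcribed from the opposite strand and measured 27.6 ± 2.83 TPM in IP and 38.4 ± 3.24 in input. Since the strand setting of the counting is not given in the sources used here, reads of such partners cannot be told apart with certainty.

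Fgf2 went the other way at a much lower level. It measured 1.35, 2.76 and 6.44 TPM in the lowest, median and highest IP library and 0.48, 1.43 and 2.55 TPM in input, so the fractions overlapped. The difference was 0.61 ± 0.16 (SE; adjusted p = 0.00196, limma). By day it was 0.50 (adjusted p = 0.156), 0.07 (0.830) and 1.27 (0.000923, limma) on days 11, 18 and 27. On day 27 the IP libraries held 4.86, 3.15, 2.14 and 3.80 TPM and the input libraries 1.18, 0.61, 0.48 and 1.1 TPM, with no overlap. The olfactory receptor background averaged 3.10 TPM per gene in IP and 6.19 TPM in input, against Fgf2 means of 2.92 and 1.48 TPM. On day 27 it was 3.93 and 4.24 TPM, against Fgf2 means of 3.49 and 0.84 TPM. Fgf2 thus lay at the level of this background or below it, and the part of the background in its values was not tested. Fgf2 (chromosome 3, 37348477 to 37410106, plus strand) overlaps Nudt6 on the opposite strand, and Nudt6 was at 8.76 ± 3.25 TPM in IP and 5.58 ± 1.43 TPM in input (SD, n = 12). As a share of the summed Fgf1 and Fgf2 level, Fgf1 made up 78.5 ± 9.64% in IP and 94.5 ± 2.48% in input (SD, n = 12).

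Fgfr1, an FGF receptor of neurons and neural stem cells, showed the largest difference of the 9 members. Its level was 105.66 TPM in the lowest, 143.8 in the median and 218.20 in the highest IP library, and 40.94, 47.3 and 62.08 TPM in input. Every IP library lay above every input library. The difference was 1.62 ± 0.08 (SE; adjusted p = 9.09e-13, limma), with 1.42, 1.89 and 1.55 on days 11, 18 and 27. The lowest IP value came from the library in which Rpph1 took 17.4% of the TPM, and without that library the difference was 1.67. Fgfr1 lies on chromosome 8 (25518759 to 25575718, plus strand).

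Fgfr3, which is known from astrocytes and radial glia, was moderately higher in IP. It measured 24.34, 45.1 and 59.02 TPM in the lowest, median and highest IP library and 26.75, 32.1 and 40.53 TPM in input. The fractions overlapped on day 11 and not on days 18 and 27. The difference was 0.43 ± 0.09 (SE; adjusted p = 0.000345, limma). It was 0.16 (adjusted p = 0.057) under median-ratio scaling. Fgfr2, the other receptor with a strong glial association, measured 14.25, 19.2 and 24.22 TPM in IP and 14.69, 17.1 and 20.13 TPM in input. Its difference was 0.14 ± 0.07 (SE; adjusted p = 0.094, limma; 95% interval -0.01 to 0.29), it was -0.13 under median-ratio scaling (adjusted p = 0.045), and it passed the test without the running IP library a of day 11 (0.17, adjusted p = 0.030). Summed levels of the astrocyte list stood at 4144 and 2975 TPM in IP and input, with 6 markers called higher and 4 lower. Those of 8 oligodendrocyte markers stood at 1134 ± 139 and 580 ± 86.4 TPM (SD, n = 12). The 6 oligodendrocyte precursor markers went the other way, with 49.4 ± 5.34 and 87.3 ± 13.6 TPM. The part of these marker lists in the Fgfr2 and Fgfr3 values was not tested. Fgfr3 lies on chromosome 5 (33721724 to 33737068, plus strand) and Fgfr2 on chromosome 7 (130162451 to 130266808, minus strand).

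**Figure D2:**
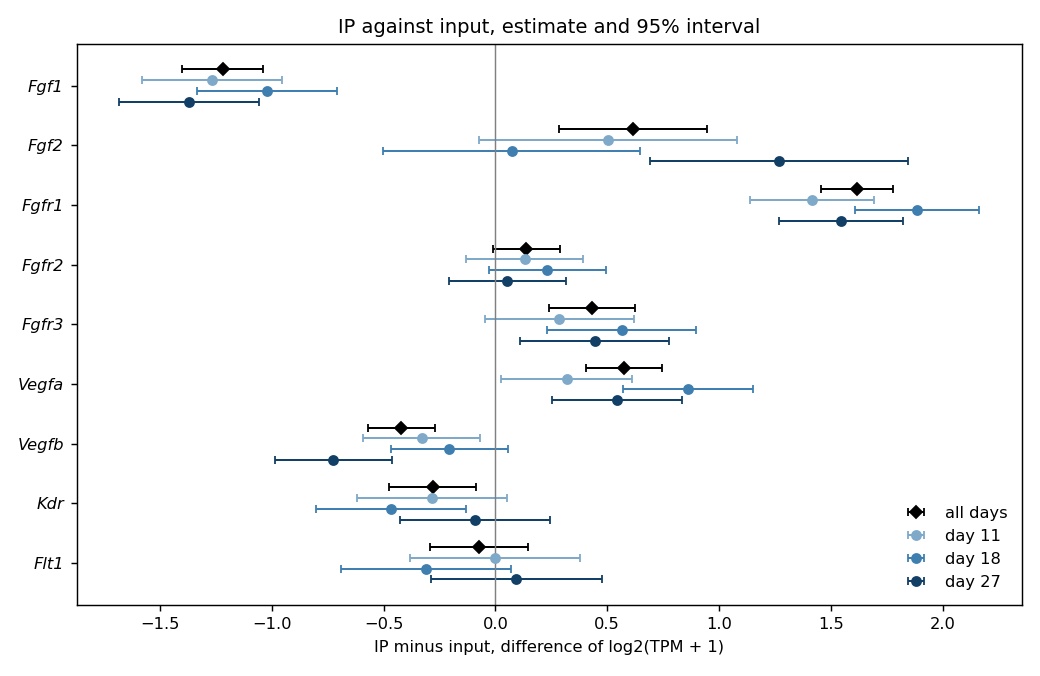
Difference of log2(TPM + 1) between IP and input for each member, over all days (diamonds) and within days 11, 18 and 27 (circles), with 95% intervals from the limma fit. Fgfr1 (1.62) and Fgf1 (-1.22) lie farthest from 0, and the interval of Fgf2 on day 27 lies above its day 18 estimate.

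The make-up of the receptor pool within a library does not depend on scaling between libraries. The summed level of Fgfr1, Fgfr2 and Fgfr3 was 213 ± 34.2 TPM in IP and 97.1 ± 8.45 TPM in input (SD, n = 12). Fgfr1 supplied 70.1 ± 3.93% of it in IP, with libraries from 64.7% to 78.5%, and 49.1 ± 2.86% in input, with libraries from 45.6% to 54.2%. Fgfr2 supplied 9.19 ± 1.58% and 17.9 ± 1.49%, and Fgfr3 20.7 ± 2.81% and 33.0 ± 2.98%. For each of the 3 receptors the shares in the 12 IP libraries did not overlap those in the 12 input libraries. The precipitate thus held a receptor pool with a larger Fgfr1 share and smaller Fgfr2 and Fgfr3 shares, although the level of Fgfr3 itself was not lower there.

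**Figure D3:**
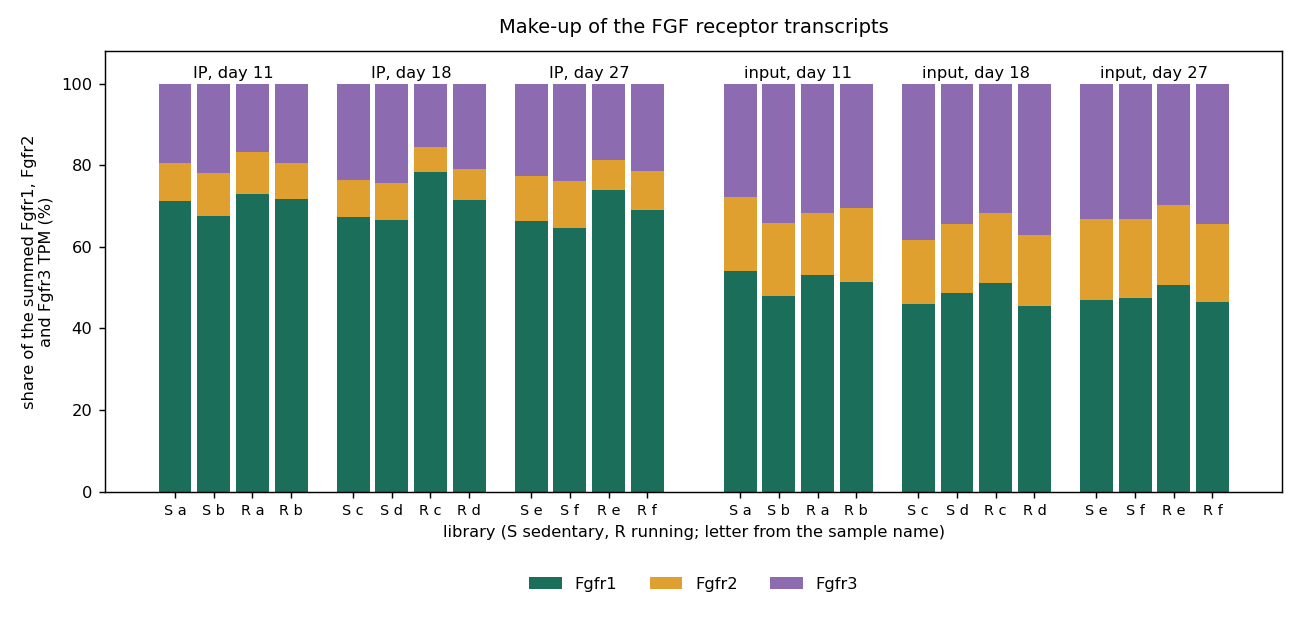
Share of Fgfr1, Fgfr2 and Fgfr3 in their summed TPM (stacked to 100%) in each of the 24 libraries, with S for sedentary, R for running and the library letter. Fgfr1 takes 64.7% to 78.5% in IP and 45.6% to 54.2% in input, and within each day its IP share is higher in both running libraries than in both sedentary libraries. The Fgfr1 level itself overlaps between them on every day, and 6.77%, 21.5% and 17.3% of single genes lie higher in both running IP libraries on days 11, 18 and 27.

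Vegfa, the main angiogenic ligand, was higher in IP. Its level was 46.04, 57.0 and 68.49 TPM in the lowest, median and highest IP library and 28.86, 38.3 and 53.72 TPM in input. The fractions overlapped on day 11 only. The difference was 0.57 ± 0.08 (SE; adjusted p = 3.28e-06, limma), with 0.32 (adjusted p = 0.075), 0.86 (2.90e-05) and 0.54 (0.00346) on days 11, 18 and 27. Vegfb, a ligand of Flt1, was lower in IP: 50.60, 61.6 and 88.94 TPM in the lowest, median and highest IP library, and 47.07, 95.8 and 117.17 TPM in input. Its difference was -0.42 ± 0.07 (SE; adjusted p = 3.74e-05, limma), and it was largest on day 27 (-0.72, adjusted p = 0.000116). On days 11 and 27 no IP library reached an input library, while on day 18 the fractions overlapped. Vegfa was therefore 46.2 ± 6.96% of the summed ligand level in IP and 29.9 ± 4.21% in input (SD, n = 12). Vegfa lies on chromosome 17 (46016993 to 46032377) and Vegfb on chromosome 19 (6982472 to 6987651), both on the minus strand.

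Whether the IP and input difference depended on the day was tested with an F test in the same fit. No member passed, while 37.4% of all genes did. The lowest adjusted p-values were 0.052 for Fgf2, 0.057 for Vegfb, 0.090 for Vegfa and 0.113 for Fgfr1 (limma). Single libraries decided these calls. Fgf2 passed without any 1 of 7 libraries: in IP the sedentary a and b of day 11, the running and sedentary d of day 18, and the sedentary e and running f of day 27, and in input the running c of day 18. Vegfb passed without the running IP library e of day 27, or without the running or sedentary input library d of day 18. Vegfa passed without the running or sedentary input library a of day 11, and Fgfr1 without the running IP library b of day 11. The adjusted p in these cases lay between 0.0147 and 0.0493 (limma).

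The 2 VEGF receptors were low in both fractions. Kdr, the receptor that carries most of the Vegfa signal in endothelium, measured 3.86, 4.90 and 7.95 TPM in the lowest, median and highest IP library and 4.82, 6.62 and 7.13 TPM in input. It was lower in IP by -0.28 ± 0.09 (SE; adjusted p = 0.0113, limma). Without the day 18 libraries the difference was -0.19 and no longer passed (adjusted p = 0.180). Flt1, which also acts as a decoy for Vegfa, measured 6.54, 8.72 and 16.69 TPM in IP and 7.46, 9.80 and 10.90 TPM in input. Its difference was -0.07 ± 0.11 (SE; adjusted p = 0.548, limma; 95% interval -0.29 to 0.15), it was 0.046 without day 18, and it was called lower under median-ratio scaling (-0.33, adjusted p = 0.00669). Both genes lie on the minus strand of chromosome 5, Kdr at 75932827 to 75979072 and Flt1 at 147561604 to 147726438.

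Endothelial markers were present in the precipitate at nearly the input level. The summed level of the 16 markers was 130 ± 24.5 TPM in IP (96.6 to 188) and 149 ± 13.9 TPM in input (124 to 170), none of the 16 was at 0 in any library, and 7 of them passed as lower in IP and 0 as higher. Over all genes tested, 28.5% were called lower and 41.4% higher. Kdr amounted to 3.94 ± 0.40% of that sum in IP and 4.30 ± 0.61% in input, and Flt1 to 7.03 ± 1.09% and 6.39 ± 0.52% (SD, n = 12). The sedentary IP library f of day 27 held the highest Kdr (7.95 TPM), the highest Flt1 (16.69 TPM) and the highest endothelial sum (188 TPM) of all 24 libraries. In that library Kdr was 4.23% of the endothelial sum, inside the range of the other IP libraries (3.32% to 4.47%). Flt1 was 8.89% of that sum there, near the upper end of its range in the other IP libraries (5.54% to 9.19%). The part of endothelial RNA in the receptor values was not tested.

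**Figure D4:**
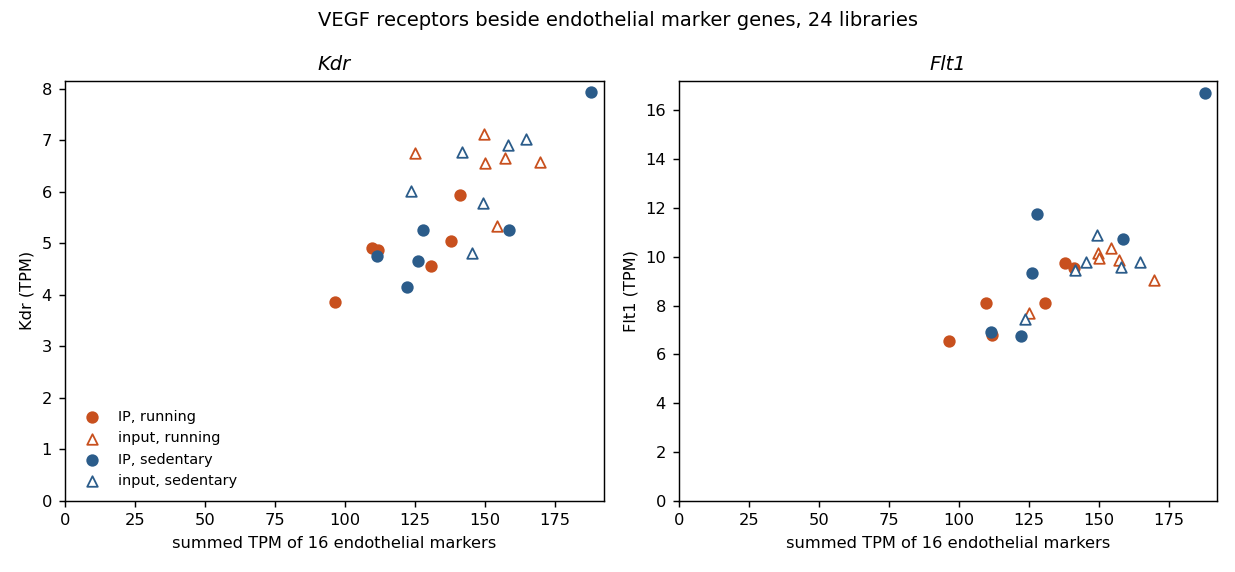
Kdr (left) and Flt1 (right) in TPM against the summed TPM of 16 endothelial markers that include neither gene, in 24 libraries (filled circles IP, open triangles input, orange running, blue sedentary). The point at the upper right of both panels is the sedentary IP library f of day 27, with 7.95 TPM of Kdr and 16.69 TPM of Flt1.

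The second comparison asks whether voluntary running changed the members. No member passed in either fraction, nor did any member differ between fractions in its running effect (limma). The same held for nearly the whole table: 0.00579% of 17282 genes were called in IP, 0% of 20462 in input and 0% of 19507 for the difference of the running effects between the fractions. At an unadjusted p under 0.05 there were 2453, 858 and 1166 genes, and 2, 0 and 0 of the 9 members. Within single days the called share was 0%, 0% and 0.0289% in IP and 0%, 0.00977% and 0% in input on days 11, 18 and 27, with no member among them. The running effect differed between days for 0.00579% of genes in IP and 0% in input, again with no member among them.

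**Figure D5:**
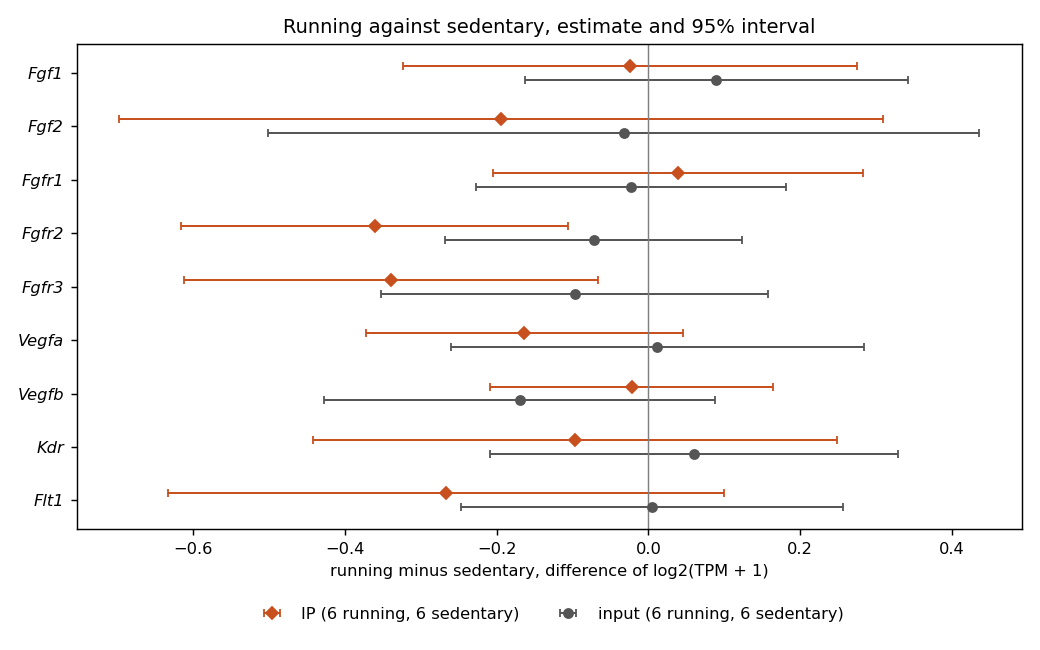
Difference of log2(TPM + 1) between running and sedentary libraries for each member, as the mean over 3 days, in IP (diamonds) and input (circles), with 95% intervals from the limma fits. In IP the intervals of Fgfr2 (-0.62 to -0.11) and Fgfr3 (-0.61 to -0.07) lie below 0 before adjustment over all genes, and no adjusted p was below 0.05.

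The 2 members nearest to a running difference in IP were Fgfr2 and Fgfr3. In running mice Fgfr2 measured 14.80 and 19.98 TPM on day 11, 16.76 and 17.30 on day 18 and 14.25 and 17.88 on day 27. In sedentary mice it measured 18.93 and 24.22, 23.18 and 19.55, and 22.54 and 22.64 TPM on the same days. The groups overlapped on day 11, and on days 18 and 27 both running libraries lay below both sedentary libraries. The same was true of 23.8% and 28.6% of all genes tested in IP on these days, and on day 27 also of Fgf1, Vegfa, Kdr and Flt1. The means were 16.8 ± 2.10 and 21.8 ± 2.11 TPM (SD, n = 6), and the difference was -0.36 ± 0.12 (SE; adjusted p = 0.223, limma). Fgfr3 in running mice measured 24.34 and 44.41, 43.04 and 47.90, and 35.93 and 39.40 TPM on days 11, 18 and 27. In sedentary mice it measured 39.11 and 51.34, 59.02 and 52.47, and 45.80 and 47.13 TPM. It had the same pattern of overlap, with means of 39.2 ± 8.36 and 49.1 ± 6.77 TPM and a difference of -0.34 ± 0.13 (SE; adjusted p = 0.269, limma). The lowest value of Fgfr3, 24.34 TPM, came from the Rpph1-rich running library a of day 11, and without that library the differences were -0.29 for Fgfr2 and -0.20 for Fgfr3. Leaving out each IP library in turn gave -0.43 to -0.29 for Fgfr2 and -0.48 to -0.20 for Fgfr3.

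In input the same comparison gave -0.07 for Fgfr2 and -0.10 for Fgfr3, and on day 27 both running libraries lay below both sedentary ones for each of the 2 genes, as for 16.7% of all genes tested. The running effect in the precipitate less that in whole tissue was -0.29 ± 0.14 (adjusted p = 0.803) for Fgfr2 and -0.24 ± 0.18 (adjusted p = 0.823, SE, limma) for Fgfr3. For Fgfr3 it was -0.10 without the running IP library a of day 11 and -0.38 without the running IP library b of day 11. Of the 12 astrocyte markers, 0 had a positive running difference in IP (median -0.34), and their summed level was 3624 ± 608 TPM in running and 4664 ± 667 TPM in sedentary IP libraries (SD, n = 6). The neural stem cell list had 2 of 12 positive differences (median -0.31) and the immature neuron list 11 of 12 (median 0.32), beside a median of -0.07 over all genes tested in IP. The part of these lists in the Fgfr2 and Fgfr3 values was not tested. Fgfr1 itself gave a running difference in IP of 0.04 ± 0.11 (SE; 95% interval -0.20 to 0.28; adjusted p = 0.909, limma). Within each day, however, its share of the receptor sum was higher in both running IP libraries than in both sedentary ones: 71.7% and 73.0% against 67.6% and 71.4% on day 11, 71.6% and 78.5% against 66.5% and 67.2% on day 18, and 69.0% and 73.8% against 64.7% and 66.4% on day 27. Of all single genes tested in IP, 6.77%, 21.5% and 17.3% lay higher in both running libraries on days 11, 18 and 27. The share is a description of 2 libraries per group and was not tested. In input the shares of running and sedentary libraries overlapped on every day.

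The other members gave smaller running differences in IP. Flt1 was at 8.15 ± 1.33 TPM in running and 10.4 ± 3.68 TPM in sedentary IP libraries (SD, n = 6), with a difference of -0.27 ± 0.17 (SE; adjusted p = 0.494, limma) that was -0.17 without the sedentary library f of day 27 and -0.15 without the sedentary library a of day 11. Kdr gave -0.10. The Kdr difference was -0.01 without the sedentary library f of day 27 and -0.18 without the sedentary library e of day 27. The endothelial sum stood at 121 ± 17.9 TPM in running and 139 ± 28.6 TPM in sedentary IP libraries, and its part was not tested. Vegfa gave -0.16 ± 0.10 (SE; 95% interval -0.37 to 0.05), Vegfb -0.02 (interval -0.21 to 0.16) and Fgf1 -0.02 (interval -0.32 to 0.27). Vegfa was -0.10 without the sedentary IP library b of day 11. These intervals cover the spread between the libraries only.

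Fgf2 had the widest interval of the 9 members in IP (-0.70 to 0.31 around -0.19). On day 11 the running IP libraries held 1.83 and 1.40 TPM and the sedentary ones 2.99 and 6.44 TPM, without overlap, as for 22.5% of all genes tested that were lower in both running libraries. The day 11 difference was -1.06 (unadjusted p = 0.0200, adjusted p = 0.880, limma), against 0.14 on day 18 and 0.35 on day 27. The F test of that change over days gave an adjusted p of 0.931.

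In input all running differences of the members lay between -0.17 (Vegfb) and 0.09 (Fgf1). For Vegfb the within-day values were -0.07, -0.39 and -0.04. On day 18 running libraries held 47.07 and 71.95 TPM and sedentary libraries 70.29 and 83.66 TPM, which overlap.

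The third comparison follows the members over the 3 treatment times. Vegfb was the single member that passed in any of the 6 day comparisons. In IP its libraries held 88.94, 88.84, 86.67 and 79.59 TPM on day 11, 50.60, 58.00, 62.14 and 61.12 on day 18, and 62.83, 61.04, 52.71 and 57.69 on day 27. Each library of day 11 lay above each later library, and the later days overlapped. Vegfb fell by 0.56 ± 0.11 from day 11 to day 18 (SE; adjusted p = 0.0102, limma) and by 0.55 ± 0.11 from day 11 to day 27 (adjusted p = 0.00397), where 1.1% and 3.88% of all genes were called lower. Both comparisons share the day 11 libraries. Over all genes, median-ratio scaling turned the calls from 788 higher and 190 lower to 464 and 448 for day 18, and from 1971 and 671 to 1285 and 1503 for day 27, with the median of all genes going from 0.11 to 0.0055 and from 0.15 to 0.027. From day 18 to day 27 the difference was 0.02 (adjusted p = 0.967), and 0.122% of genes were called. The fall to day 18 missed the threshold without the sedentary IP library a of day 11 (adjusted p = 0.066) and with a variance model that uses neither trend nor robust weighting (adjusted p = 0.060).

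In input Vegfb also fell from day 11 to day 18 but not to day 27. The libraries held 104.54, 117.17, 106.38 and 105.28 TPM on day 11, 47.07, 70.29, 71.95 and 83.66 on day 18, and 98.57, 90.29, 92.98 and 107.85 on day 27. The 4 libraries of day 18 lay below all others. The difference was -0.69 ± 0.14 from day 11 to day 18 (SE; adjusted p = 0.00251, limma), when 11.4% of genes were called lower (7736 higher and 2338 lower, and 7227 and 4154 under median-ratio scaling), and -0.15 (adjusted p = 0.681) from day 11 to day 27, when 0% were called (2917 genes at an unadjusted p under 0.05). From day 18 to day 27 Vegfb rose by 0.53 ± 0.14 (SE; adjusted p = 0.0187, limma), and 10.4% of genes were called higher. That rise missed the threshold without the running library c (0.38, adjusted p = 0.067) or the sedentary library c (0.47, 0.078) of day 18, or without the running library e (0.51, 0.0587) or the sedentary library f (0.47, 0.075) of day 27. The olfactory receptor background was at 12.3 TPM per gene in the day 18 input against 1.99 and 4.24 TPM, and its part in the input values of that day was not tested. In IP that background was 2.42, 2.96 and 3.93 TPM per gene on days 11, 18 and 27, and its part in the IP values of Vegfb was not tested either.

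The share of Vegfa in the summed VEGF ligands followed Vegfb. In IP it was 37.9 ± 4.42% on day 11, 50.8 ± 1.54% on day 18 and 49.8 ± 4.18% on day 27 (SD, n = 4), and every day 18 and day 27 library lay above every day 11 library. Vegfa itself did not pass: its IP differences were 0.19 on day 18 and 0.15 on day 27 against day 11. In input Vegfa was at 42.6 ± 10.1, 32.5 ± 2.73 and 39.4 ± 0.95 TPM on the 3 days (SD, n = 4). Its difference from day 11 to day 18 was -0.35 (adjusted p = 0.076, limma), and it passed without the running input library a (-0.47, adjusted p = 0.020) or the sedentary input library a (-0.50, adjusted p = 0.014) of day 11. Without the running or the sedentary input library b of day 11 it was -0.23 (adjusted p = 0.233) and -0.20 (adjusted p = 0.302, limma).

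Among the receptors no day difference passed. In IP Fgfr1 was at 143 ± 25.96, 174 ± 31.8 and 133 ± 6.72 TPM on days 11, 18 and 27 (SD, n = 4), with 0.28 from day 11 to day 18 (adjusted p = 0.247) and -0.36 from day 18 to day 27 (adjusted p = 0.277, limma). The first passed without the running IP library b of day 11 (0.44, adjusted p = 0.035), and it was 0.13 (adjusted p = 0.642) without the Rpph1-rich running library a of day 11 and 0.18 (adjusted p = 0.559, limma) without the running library c of day 18. Fgfr3 was at 39.8 ± 11.5, 50.6 ± 6.80 and 42.1 ± 5.30 TPM, with 0.38 from day 11 to day 18 (adjusted p = 0.164, limma), which also passed without library b (0.59, adjusted p = 0.0094) and was 0.17 (adjusted p = 0.485) without library a. Flt1 was at 8.76 ± 2.36, 7.69 ± 1.30 and 11.3 ± 3.74 TPM in IP, beside endothelial sums of 123.1 ± 14.3, 114 ± 13.3 and 154 ± 25.6 TPM. Its difference from day 18 to day 27 was 0.47 (adjusted p = 0.354, limma). Fgf2 in input went from 1.92 ± 0.59 TPM on day 18 to 0.84 ± 0.35 TPM on day 27 without overlap, with a difference of -0.66 (adjusted p = 0.067, limma). Between these days 26.7% of all genes tested in input were called lower. The olfactory receptor background went from 12.3 to 4.24 TPM per gene, and its part in the Fgf2 values was not tested.

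The remaining genes of both pathways were taken from 7 lists of known function. Counts of list genes called in IP against input are to be read beside 41.4% of all genes called higher and 28.5% lower. Because the median-ratio scaling lowers every IP difference by about the shift given above, the medians of the coreceptor list (-0.19), the adaptor list (-0.07) and the hypoxia list (-0.17) changed sign under it, while those of the other 4 lists kept theirs. Of 16 secreted FGF ligands 12 were tested, and 6 were lower and 1 higher in IP (median -0.35, beside 0.12 over all genes). Fgf10 was at 6.48 ± 1.64 TPM in IP and 17.2 ± 11.1 in input, Fgf9 at 10.6 ± 2.46 and 16.5 ± 4.78, Fgf5 at 6.36 ± 1.84 and 10.3 ± 1.70, and Fgf7 at 1.46 ± 0.74 and 3.42 ± 2.86 TPM (SD, n = 12). The input values include the day 18 libraries: from day 11 to day 18, 10 of the 11 ligands tested in input rose, beside 37.8% of all genes. Fgf10 went from 8.85 to 31.0 TPM, Fgf6 from 0.95 to 5.67, Fgf7 from 1.25 to 6.97 and Fgf9 from 12.0 to 21.8 TPM, in the libraries whose olfactory receptor background went from 1.99 to 12.3 TPM per gene. The part of that background was not tested. From day 18 to day 27, 5 of the 11 fell, beside 26.7% of all genes. In IP, Fgf18 rose from 1.84 TPM on day 11 to 4.07 TPM on day 27 (0.84, adjusted p = 0.0243, limma), beside 11.4% of all genes called higher. The olfactory receptor background in IP went from 2.42 to 3.93 TPM per gene between these days, and its part in the Fgf18 values was not tested.

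The FGF homologous factors, which act inside neurons on sodium channels and are not secreted, were mostly lower in IP. Of the 4, 3 passed as lower: Fgf12 (25.7 ± 3.35 against 56.6 ± 7.27 TPM), Fgf13 (197 ± 38.1 against 421 ± 109 TPM) and Fgf14 (33.2 ± 6.13 against 63.4 ± 14.2 TPM; SD, n = 12). Fgf11 did not pass (7.30 ± 2.10 against 7.90 ± 3.17 TPM). Over all genes tested, 28.5% were called lower in IP. In IP, Fgf13 rose from 157 TPM on day 11 to 228 TPM on day 27 (0.55, adjusted p = 0.0094, limma), beside 11.4% of all genes called higher.

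Of 17 other receptors and heparan sulfate coreceptors, 16 were tested. In IP 6 were higher and 7 lower (median 0.08), beside 41.4% and 28.5% of all genes. Under median-ratio scaling the counts were 2 and 9. Gpc2, a glypican of developing neurons, had the largest difference of the named genes, 16.2 ± 4.50 against 2.44 ± 1.73 TPM (2.44 ± 0.14, SE; adjusted p = 1.14e-11, limma). Flrt1, a membrane protein that binds FGF receptors, was higher (29.2 ± 5.75 against 11.7 ± 0.67 TPM), and its relative Flrt2 was lower (13.9 ± 2.03 against 22.7 ± 1.94 TPM). The syndecan Sdc4 was lower in IP as well (48.3 ± 8.86 against 90.9 ± 24.7 TPM), and in IP it fell from 54.4 TPM on day 11 to 41.5 TPM on day 27, while Gpc4 rose from 70.9 to 96.8 TPM.

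Of the 13 adaptors, 8 were higher and 2 lower in IP (median 0.20), beside 41.4% and 28.5% of all genes. Under median-ratio scaling the counts were 4 and 4. Plcg1, the phospholipase that binds activated FGF receptors directly, was at 70.1 ± 10.5 against 29.9 ± 3.84 TPM, Gab1 at 26.7 ± 5.15 against 13.02 ± 1.28 and Crkl at 30.6 ± 4.96 against 17.6 ± 3.63 TPM (SD, n = 12). Grb2, which links receptors to Sos, was lower (75.2 ± 9.05 against 114 ± 13.5 TPM). Of 15 feedback and target genes of FGF and ERK signalling, 5 were higher and 7 lower (median -0.20), and 3 and 8 under that scaling. The inhibitor Il17rd (17.2 ± 3.89 against 8.47 ± 1.18 TPM) and the phosphatase Dusp4 (63.0 ± 16.4 against 37.0 ± 9.35 TPM) were higher, and the phosphatase Dusp6 (10.4 ± 1.83 against 16.4 ± 1.86 TPM) and the ETS factor Etv1 (23.5 ± 4.003 against 36.6 ± 6.48 TPM) were lower. Members of the list were called in both directions. In IP the immediate early gene Egr1 rose from 12.2 to 22.1 TPM and the FGF antagonist Spry1 from 14.9 to 23.4 TPM from day 11 to day 27. Fosl1 rose from 11.3 TPM on day 11 to 21.2 TPM on day 18, where 4.56% of all genes were called higher, and missed the threshold under median-ratio scaling (adjusted p = 0.0565, limma).

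Of 6 other VEGF ligands and receptors, 3 were higher and 1 lower in IP (median 0.29), beside 41.4% and 28.5% of all genes. The coreceptors Nrp1 and Nrp2, which bind VEGF and also the guidance semaphorins, were at 160 ± 26.9 against 73.7 ± 8.69 TPM and 162 ± 27.8 against 98.4 ± 14.6 TPM (SD, n = 12). Both stood far above Kdr and Flt1 per length in both fractions. In IP, Nrp2 rose from 133 TPM on day 11 to 180 TPM on day 18 and 174 TPM on day 27, 2 calls that were lost under median-ratio scaling (adjusted p = 0.0739 and 0.0921, limma). Vegfc was higher (5.84 ± 1.85 against 3.51 ± 1.41 TPM) and Pgf lower (2.57 ± 1.02 against 4.46 ± 1.87 TPM). Of the 10 regulators of the hypoxia response that controls Vegfa, 5 were higher and 3 lower (median 0.10), near the same shares of all genes. Under median-ratio scaling the counts were 2 and 5. Hif1a was at 90.4 ± 11.5 against 70.2 ± 12.0 TPM, a call lost under that scaling (0.09, adjusted p = 0.226, limma), its partner Arnt at 53.3 ± 8.09 against 33.4 ± 3.42 and its inhibitor Hif1an at 32.4 ± 5.03 against 18.6 ± 1.89 TPM. Epas1, the endothelial and astrocytic relative of Hif1a, was lower in IP (43.6 ± 7.005 against 74.0 ± 8.99 TPM). In IP the prolyl hydroxylase Egln2 rose from 34.2 TPM on day 11 to 50.2 on day 18 and 52.9 TPM on day 27. No gene of the 7 lists passed for running in either fraction.

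In input, other genes of these lists were called between day 18 and the days around it, in the libraries with the high olfactory receptor background, whose part was not tested. From day 11 to day 18 the glypican Gpc6 rose from 22.6 to 103 TPM, Sdc1 from 1.31 to 5.71, Fgfbp1 from 0.98 to 4.65 and Klb from 0.67 to 3.53 TPM. Hif3a (2.03 to 5.44 TPM), Egln3 (2.85 to 6.55 TPM), Flt4, the receptor of lymphatic vessels (0.90 to 2.56 TPM), Vegfc (2.35 to 4.76 TPM) and Shc1 (4.75 to 8.86 TPM) rose as well. Hif1a (73.98 to 56.9 TPM), Ptpn11 (85.8 to 67.3 TPM), Grb2 (122 to 97.3 TPM) and Plcg1 (32.5 to 26.1 TPM) fell over the same days. The changes from day 18 to day 27 mostly ran the other way: Gpc6, Fgfbp1, Flt4, Hif3a and Shc1 fell, and Hif1a, Grb2 and Sos1 rose.

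For each member the genes of most similar pattern were found by the Pearson correlation over the 24 libraries after the mean of each fraction was removed, among 11032 other genes (11033 for Fgf2). These libraries share composition and processing, so the values are descriptions. Fgfr1 was most like Pcdhgc3 (r = 0.89), Ttc28 and Ddb1, Fgfr2 like Pcsk6 (r = 0.86), Zfp36l2 and Slc1a2, and Fgfr3 like Nwd1 (r = 0.90), Oplah and Abl1. Vegfa was most like Sfswap (r = 0.88), Usp48 and Fnbp4, and Vegfb like Minos1 (r = 0.89), Rpl12 and Rpl21. Kdr was most like Ptprb (r = 0.69), Pecam1 and Flt1, and Flt1 like Abcb1a (r = 0.83), Ptprb and Pecam1. Kdr and Flt1 correlated with r = 0.87 over the 12 IP libraries and -0.15 over the 12 input libraries. The sedentary IP library f of day 27 was the highest in both genes. The other matches of Kdr were also weaker in input, with 0.82 and 0.32 for Ptprb and 0.86 and 0.13 for Pecam1. The best match of Flt1, Abcb1a, gave 0.85 in IP and 0.74 in input. Fgf1 (Lsg1, r = 0.75, with Fam114a2 and Mex3c) and Fgf2 (Dgcr6, r = 0.65, with Egfl7 and Macrod1) had, with Kdr, the weakest best matches of the 9 members. For Fgf2, Dgcr6 gave 0.69 in each fraction, and Macrod1 gave 0.78 in IP and 0.017 in input.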

How the data were processed

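The kit was the SMARTer Stranded Total RNA-Seq Kit v2, per the labels' protocols. RSEM and the build mm10 are named in the submitters' processing notes, while versions, aligner, gene models and strand setting were not given in the sources used here. The authors deposited 1 table of TPM for 23306 genes and 24 libraries. TPM keeps no read depth, so the depth is unknown and precision rests on the spread between libraries. The number of mice per library, and whether the libraries of a group are separate mice, is not in the labels, so the spread behind each p-value may be technical only.

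Differences were tested with limma 3.58.1 in R 4.3.3 (lmFit, eBayes with trend and robust, two-sided) on log2(TPM + 1), which understates the change of low genes, over genes with a mean of at least 1 TPM in the libraries of the fit. P-values were adjusted by Benjamini-Hochberg over all genes tested, with a threshold of 0.05. The fits were also run on simulated data with independent normal noise. Those data held no shared composition or background, so they do not show how the fits behave on these libraries. IP was compared with input over all 24 libraries, and running and days within each fraction. Shares, marker sums and correlations are descriptions without a test.

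The members and lists were chosen with earlier results of these data known. All members are named, with the 3 genes most similar to each (mean of at least 5 TPM in both fractions) and, of each list and comparison, up to 4 called genes of lowest p. Fgf11 and the genes given for input between days 18 and 27 were otherwise picked after their values were seen. Alternatives were pseudocount 0.1, no filter or a filter at 5 TPM, median-ratio scaling, a replicate block, eBayes without trend and robust, and leaving out each library or day 18. Python 3.11.15, pandas 2.3.3, NumPy 2.4.6 and Matplotlib 3.10.9 made the descriptions and figures. Coordinates of the members and promoters are those of RefSeq, and exons and overlapping genes those of GENCODE M21. All are on GRCm38.p6, the assembly of mm10.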

Additional observations from a re-analysis of the deposited data

Results flagged for a closer look

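For the 9 members, the 6 libraries that share fraction and activity were examined over the 3 days, in 36 sets, and 4 sets held a library far apart from the other 5, where chance gives about 1 in 20. Fgf1 was at 13.23 TPM in the sedentary IP library c of day 18. Fgfr1 was at 62.08 TPM in the running input library a of day 11. Kdr was at 7.95 TPM in the sedentary IP library f of day 27 and, at the low end, at 5.34 TPM in the running input library d of day 18.

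For Kdr the running difference on day 27 was -0.37 in IP and 0.32 in input. In IP both running libraries lay below both sedentary ones, as for 28.6% of all genes tested. In input both lay above them, as for 26.3%. That difference between the fractions on day 27 was not tested by itself, and over the 3 days the running effects of the fractions differed by -0.16 (adjusted p = 0.883, limma). In input the running difference of Kdr was -0.20 on day 18 and 0.32 on day 27, again without overlap. On day 18 both running libraries lay below both sedentary ones, as for 18.5% of all genes tested. The F test of the change of the Kdr running difference over the 3 days in input gave an adjusted p of 0.998 (limma).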

How the results depend on the processing

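Under median-ratio scaling the members lower in IP went from 3 to 5, Fgfr2 turned from 0.14 to -0.13, members whose IP and input difference depended on the day numbered 2 (Fgfr1 and Vegfb), members lower in input on day 18 than on day 11 numbered 4, and the running differences in IP turned to 0.039 for Fgf1 and 0.046 for Vegfb. Without day 18, Flt1 turned from -0.073 to 0.046. With eBayes without trend and robust, 1 member (Fgf2) depended on the day, 0 members were lower in IP on day 18 than on day 11, and 1 (Fgf2) was lower in input on day 27 than on day 18. Leaving out each library gave 0 to 1 members whose IP and input difference depended on the day, 0 to 2 higher and 0 to 1 lower in IP on day 18 than on day 11, 1 to 2 lower in input on day 18 than on day 11, and 0 to 1 higher in input on day 27 than on day 18. The running differences near 0 in IP ranged there from -0.10 to 0.055 for Fgf1, -0.065 to 0.14 for Fgfr1 and -0.071 to 0.026 for Vegfb. The causes were not tested. The IP and input calls of Fgf1, Fgf2, Fgfr1, Fgfr3, Vegfa, Vegfb and Kdr held without any single library.

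No source says what the library letters stand for, and the deviations of same-letter running and sedentary libraries correlated at 0.046 to 0.26, so the letter was not used to pair them. With a replicate block, 1 member (Fgfr3, adjusted p = 0.037, limma) passed as higher in IP on day 18 than on day 11, 2 (Vegfa and Vegfb) as lower in input on day 18 than on day 11 and 2 as higher in input on day 27 than on day 18, while 0 passed for running. Over all genes the block took calls for running in IP from 1 to 440 and for its change over days from 1 to 36, the IP calls for day 18 against 11, 27 against 11 and 27 against 18 from 978 to 2327, 2642 to 4182 and 21 to 517, and input day 27 against 11 from 0 to 407. Without trend and robust those 3 IP day counts were 5, 1716 and 5, with 3 genes for running in IP, 3 and 2 for its change over days in IP and input, and 1 for running in input. The filter at 5 TPM, which tests fewer genes, gave 11 for running in IP, 55 for IP day 27 against 18, 3027 (from 7300) for the dependence on day, and 3407 (from 10074) and 2356 (from 7592) for input day 18 against 11 and 27 against 18. The last was 3826 with pseudocount 0.1. Median-ratio scaling gave 3 genes for running in IP, and no filter gave 3 for its change over days.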
